A study of Mus musculus with 82 samples.

Results

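Nms encodes the precursor of neuromedin S, a short secreted neuropeptide. Its transcript was followed across the mouse suprachiasmatic nucleus (SCN), a paired cell group of the hypothalamus that acts as the main circadian clock of mammals. It is 1 gene of the 27515 in the deposited count table, taken by its gene symbol and gene ID, and it was read in all 82 libraries of the series. Each library is 1 hexagon of tissue with a largest radius of 40 µm, cut from a cresyl violet-stained section by laser capture along a fixed grid and not by any marker. The tissue came from C57BL/6 mice aged 8 weeks. No treatment or genotype separates the hexagons, so the comparisons are by position. Every hexagon has 3 coordinates in the labels (medial-lateral, dorsal-ventral, anterior-posterior), with no unit and no word on the direction in which each one counts. Animal, sex and time of day are not named. A hexagon holds several cells of different types, so fewer Nms cells and less Nms RNA per cell cannot be told apart.

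Neuromedin S takes its name from the suprachiasmatic nucleus, where it is made at high level. It shares its amidated carboxy-terminal end with neuromedin U (Nmu) and acts through the same receptors, NMUR1 in the periphery and NMUR2 in the brain, which are coupled to G proteins. In the SCN, neurons that make it take part in setting the daily rhythm of the network, and they overlap with neurons making vasopressin (Avp), the peptide typical of the shell, and vasoactive intestinal peptide (Vip), the peptide typical of the core.

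Nms (ENSMUSG00000067604.8) lies on chromosome 1 from 38939149 to 38950276 of GRCm38 on the plus strand. In GENCODE M21 it has 2 transcripts, the longest with 10 exons and 459 coding bases, and no other annotated gene overlaps it. All 1000 stretches of 31 bases in its transcripts were absent from the transcripts of other genes, 0 being shared, although its peptide resembles that of Nmu. The 30 transcript bases that code for the shared end of both peptides and for the first precursor residues behind it, among them the glycine used for amidation, are shown to make that comparison visible, with capitals at the 17 positions where both transcripts carry the same base:
Nms, transcript bases 549 to 578 of 1001: TTccTtTTCAGGCCtaGgAAtGGaAgatac
Nmu, transcript bases 594 to 623 of 828: TTttTaTTCAGGCCacGcAAcGGgAagagg

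The 250 bases before the start of Nms, from RefSeq on GRCm38.p6 (chr1:38938899-38939148, plus strand), are the proximal regulatory sequence of the gene. Capitals mark CCAAT, the letters bound by the factor NF-Y, searched on both strands:
Nms promoter: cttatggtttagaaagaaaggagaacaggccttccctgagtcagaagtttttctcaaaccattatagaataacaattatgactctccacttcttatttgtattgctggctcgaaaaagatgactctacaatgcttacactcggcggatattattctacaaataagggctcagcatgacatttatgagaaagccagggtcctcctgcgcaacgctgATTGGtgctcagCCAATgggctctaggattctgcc
It held 2 copies, beginning 35 bases before the start on the minus strand and 23 bases before it on the plus strand. At least 2 copies stood in 10.1% and at least 1 in 33.8% of 32851 RefSeq promoters of the same length. The clock element CACGTG, on either strand, was found 0 times in this window, as were the cAMP element TGACGTCA, the D-box TTATGTAA and TATAAA. Those 4 sets of letters stood in 6.02%, 1.55%, 0.819% and 12.4% of the promoters. These matches describe the letters only. The data measure transcript and not binding.

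The libraries held 11905 to 2843366 counts each (median 542268), with 2549 to 13419 genes detected. Among defining markers, Gad1, a GABA synthesis enzyme, and Snap25, a neuronal synaptic protein, were detected in every hexagon. The SCN factor Six6 was at 0 counts in 1 hexagon and Lhx1, another SCN regulator, at 0 in 10. The oligodendrocyte marker Mbp was at 0 in 1 hexagon and so was found in nearly all. Slc17a6, the glutamate transporter of neighbouring hypothalamic neurons, was at 0 in 53 hexagons and oxytocin (Oxt) at 0 in 75. Sections 1 to 9, numbered along the anterior-posterior coordinate from 47 to 431 in steps of 48, held 4, 6, 12, 14, 12, 14, 13, 6 and 1 hexagons. Replicate numbers below only name hexagons. Hexagons may share an animal, and p-values over hexagons are then too small.

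Nms was found in nearly every hexagon. It was detected in 81 of 82 hexagons, or 98.8%, with 9353 counts in all, and Avp was detected in 80. Levels are CPM, the share of a library's counts on the usual per-1000000 scale, with library sizes adjusted by TMM, a method that trims extreme genes. The mean was 163 ± 120 CPM (SD, n = 82), the median 134 and the range 0 to 572 CPM. The hexagon at 0 was replicate 4 of section 4, the shallowest library at 11905 counts, where an exact 95% counting interval reached 124 CPM, so low Nms could not be detected as such at that depth. Intervals of this kind cover counting error only.

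The spread of Nms between hexagons was close to that of Avp and below those of Prok2, Grp and Vip, as a description with no test of the difference. The coefficient of variation of CPM was 0.732 for Nms, 0.819 for Avp, 1.10 for Prok2, the secreted SCN output prokineticin 2, 1.75 for Grp, the core peptide gastrin-releasing peptide, and 2.01 for Vip. The 10 hexagons richest in Nms held 29.7% of its summed CPM, against 31.3% for Avp, 41.5% for Prok2, 63.0% for Grp and 71.6% for Vip. Per length, the authors' RPKM averaged 162 for Nms, 556 for Avp, 513 for Vip, 104 for Prok2 and 44.3 for Grp. Since Vip was concentrated in few hexagons (median 34.6 RPKM), Nms exceeded it in 54 of 82 hexagons. Nms exceeded Avp in 15, Prok2 in 66 and Grp in 71 hexagons by RPKM. These comparisons depend on the gene lengths used. In CPM, which is not divided by length, Prok2 had a mean of 201 and a median of 124, against 163 and 134 for Nms.

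**Figure D1:**
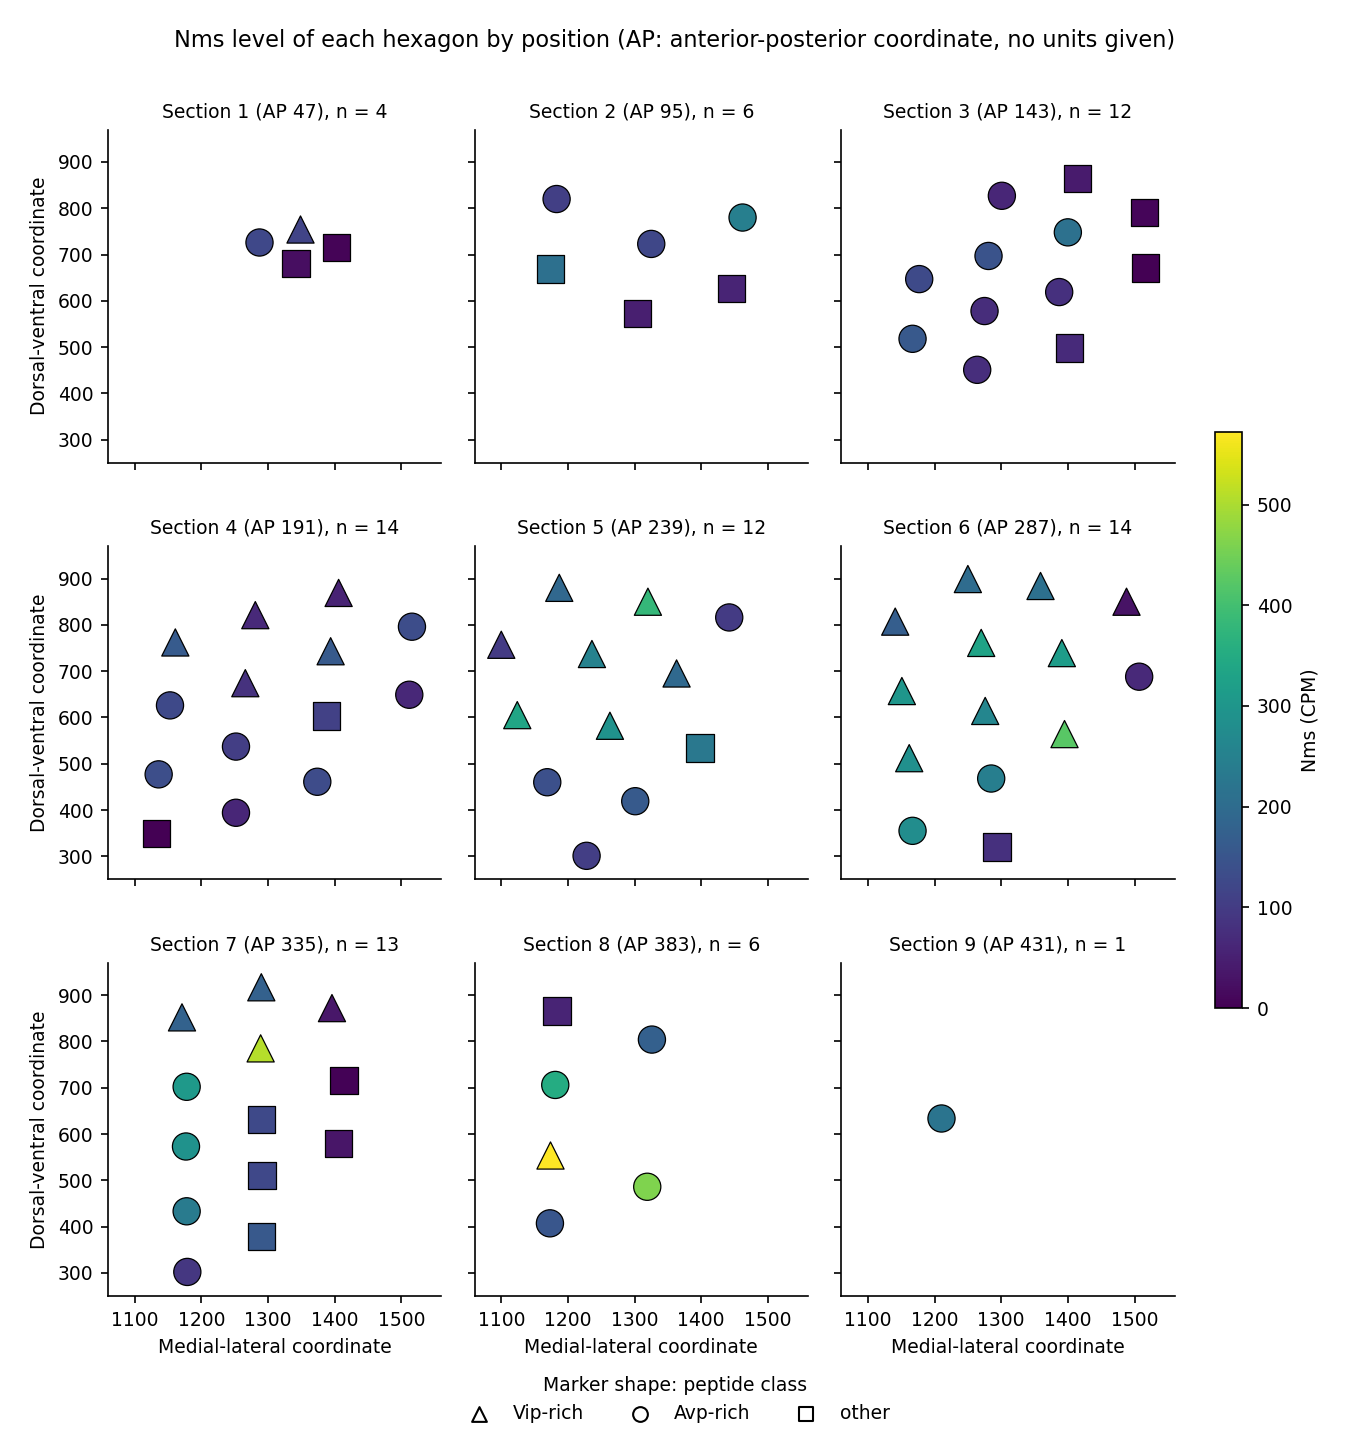
Nms level (CPM, colour) of each of 82 hexagons at its medial-lateral (horizontal) and dorsal-ventral (vertical) coordinate, 1 panel per section, with marker shape for the peptide class. Levels ran from 0 CPM in section 4 to 572 CPM in section 8, and the hexagons above 300 CPM stood in sections 5 to 8.

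Mean Nms lay between 66.4 and 131 CPM in sections 1 to 4 and between 174 and 295 CPM in sections 5 to 8, with hexagons that overlapped. In section 1 the 4 hexagons held 124, 116, 20.7 and 4.87 CPM. In section 2 the lowest, median and highest hexagons held 48.1, 114 and 246 CPM, and in section 3 they held 0.886, 74.0 and 212 CPM. No hexagon of these 3 sections exceeded 246 CPM. Section 4 ran from 0 through a median of 107 to 163 CPM. Section 5 ran from 98.5 through 192 to 381 CPM and section 6 from 29.0 through 252 to 423 CPM. Sections 4 and 5 overlapped, with a higher floor and ceiling in the latter. Section 7 ran from 3.05 through 158 to 508 CPM, section 8 from 56.1 through 263 to 572 CPM, and the 1 hexagon of section 9 held 221 CPM. Means ± SD of sections 1 to 8 were 66.4 ± 62.4, 131 ± 80.1, 87.5 ± 62.5, 99.2 ± 46.4, 206 ± 94.2, 228 ± 111, 174 ± 138 and 295 ± 200 CPM. The 10 hexagons of highest Nms all lay in sections 5 to 8, which hold 45 of the 82.

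In order of mean log2(CPM + 1), the sections ran 1, 3, 4, 7, 2, 5, 6, 8. No 2 neighbours in this order differed beyond their spread (two-sided permutation tests, exact where a section had under 10 hexagons, Benjamini-Hochberg adjusted p between 0.206 and 0.964 over 28 pairs). Of the 28 pairs of sections, 4 passed after adjustment and 9 had an unadjusted p under 0.05. Nms was higher in section 5 than in section 3 by 1.77 on the log2 scale (permutation, adjusted p = 0.0146) and than in section 4 by 1.37 (permutation, adjusted p = 0.0146). Section 6 exceeded section 3 by 1.78 (permutation, adjusted p = 0.0371) and section 4 by 1.38 (permutation, adjusted p = 0.0440). No pair with section 1, 2, 7 or 8 passed. The mean of section 4 includes replicate 4, with 0 Nms counts among only 11905, which enters at 0 on this scale. That library widens the differences of sections 5 and 6 from section 4, and their size without it is not given here. The ranges of these sections overlapped, as did those of all 28 pairs. These tests took the hexagons of a section as replicates and did not include position within it. The 4 pairs that passed also differed in library set, described below, apart from set D, which sections 4 and 5 shared. Section and set can thus not be told apart in them.

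Along the anterior-posterior coordinate, Nms rose over hexagons by 0.46 per 100 coordinate units on the log2 scale (SE 0.14, edgeR quasi-likelihood test, adjusted p = 0.0418). At the same threshold 2.94% of 11469 genes were called in this fit. The call was lost when any of sections 1, 3, 4, 5, 6 or 8, or replicate 3 or 4 of section 1, was left out, with slopes from 0.41 to 0.45 and adjusted p up to 0.142. It held without section 2 or 7, with slopes of 0.54 and 0.58. Over counts summed per section, where the section is the unit, the slope was 0.51 (SE 0.11, edgeR adjusted p = 0.0555), which missed the threshold, with 0.244% of genes called. DESeq2 called it with a slope of 0.50 (adjusted p = 0.00095), in a fit with 435 genes called against 28 by edgeR. On simulated data the edgeR fit over section sums made more false calls than its nominal level, and the DESeq2 fit was not simulated. The overall F test for any difference between sections 1 to 8 gave an edgeR adjusted p of 0.118 for Nms, with 4.1% of genes called.

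The first letter of each hexagon's description, read here as a library set, follows the sections closely. With the set as a further factor the anterior-posterior slope was 0.57 with an SE of 0.90 (edgeR adjusted p = 1.00), and 0 genes were called in that fit against 408 at an unadjusted p under 0.05. Set and section cannot be told apart along this axis. In the 4 sections cut into 2 sets each, Nms of the sets overlapped in sections 4, 5, 6 and 7. In section 6, for example, 7 hexagons of set E ran from 168 to 332 CPM and 7 of set F from 29.0 to 423 CPM. Medians of the earlier and the later set were 107 and 97.8 CPM in section 4 and 192 and 163 CPM in section 5. They were 277 and 208 CPM in section 6 and 288 and 126 CPM in section 7. The later set lay at equal or higher medial-lateral coordinates in each of these sections, so set and position are mixed there. The difference between sets was not tested.

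The companion peptides along the same axis are given by the same fit over hexagons. Prok2 rose by 1.11 per 100 units (SE 0.24, edgeR adjusted p = 0.00372) and Grp by 2.00 (SE 0.39, edgeR adjusted p = 0.00108). Over section sums neither passed, with slopes of 1.24 for Prok2 (edgeR adjusted p = 0.137) and 1.99 for Grp (edgeR adjusted p = 0.289). Vip had a slope of 1.11 (SE 0.45, edgeR adjusted p = 0.171) and Avp one of −0.21 (SE 0.16, edgeR adjusted p = 0.583), neither past the threshold. The difference between these slopes and that of Nms was not tested.

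**Figure D2:**
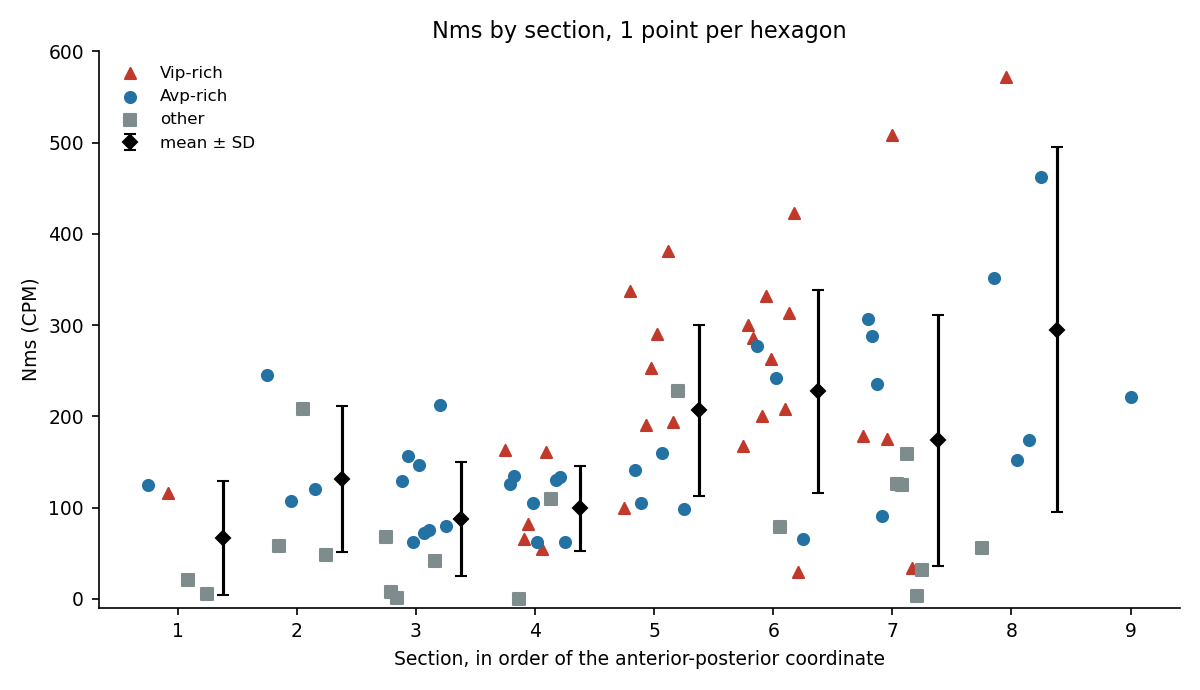
Nms (CPM) of each hexagon by section, with colour and shape for the peptide class and black diamonds for the mean ± SD of sections with more than 1 hexagon. No hexagon of sections 1 to 4 exceeded 246 CPM, and the means of sections 5, 6 and 8 lay above 200 CPM.

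Within sections Nms showed no dorsal-ventral gradient past the test. The 27 hexagons of lowest dorsal-ventral coordinate (301 to 578) held 181 ± 135 CPM, the 28 in the middle 155 ± 111 CPM and the 27 of highest coordinate (743 to 917) 156 ± 114 CPM (SD). The slope was 0.06 per 100 units (SE 0.08, edgeR adjusted p = 0.976), with 0.793% of genes called, and it was positive in 6 of 8 sections. Slopes that differ between sections were not detected (edgeR F test, adjusted p = 1.00, 0.0959% of genes called).

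The slope of Nms along this coordinate differed from those of Vip and Avp. In the same groups of hexagons Vip averaged 211, 859 and 4237 CPM and Avp 430, 286 and 255 CPM. On log2(CPM + 1), the slope of Nms was 0.10 per 100 units, that of Vip 1.47 and that of Avp −0.34. Nms minus Vip was −1.37 (p = 1e-05, the smallest that 100000 permutations within sections can give, adjusted p = 8e-05 over 8 differences). Nms minus Avp was 0.44 (permutation p = 0.00098, adjusted p = 0.0039). Nms minus Prok2 was −0.16 and Nms minus Grp −0.28, neither past the threshold (permutation, both adjusted p = 0.194). The slope of Nms thus lay between those of Vip and Avp.

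Along the medial-lateral coordinate the mean of Nms was lower at high values, but the slope missed the threshold. The 27 hexagons of lowest coordinate (1100 to 1228) held 199 ± 116 CPM, the 28 in the middle 176 ± 125 CPM and the 27 of highest coordinate (1348 to 1517) 115 ± 104 CPM (SD). The slope was −0.29 per 100 units (SE 0.12, edgeR p = 0.0223, adjusted p = 0.297), with 1.38% of genes called, and it was negative in 6 of 8 sections. It ranged from −0.38 to −0.20 with each section left out. The test for slopes that differ between sections did not pass (edgeR adjusted p = 0.683, 0.105% of genes called). Medial-lateral slopes of Avp, Vip, Prok2 and Grp did not differ from that of Nms past the threshold (permutation, adjusted p between 0.194 and 0.255), and the differences ran from −0.31 to 0.58.

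The lowest group lay at the far end of the grid. The letter in each hexagon's title, read here as the grid column, runs from A at low to D at high medial-lateral coordinate. This grouping was added after the levels had been seen. Column D occurred in sections 3 to 6 at coordinates of 1442 to 1517. Its 7 hexagons held 0.886, 6.82, 29.0, 62.7, 65.9, 98.5 and 133 CPM of Nms. All but the last, 6 of 7, lay below the median of the other hexagons in their section. In the same 4 sections, columns A, B and C held 173 ± 93.5, 158 ± 91.4 and 186 ± 120 CPM against 56.7 ± 48.4 CPM in column D (SD, n = 14, 17, 14 and 7).

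Avp in column D was low in section 3 and not in sections 4 to 6. The hexagons of section 3, with 0.886 and 6.82 CPM of Nms, held 34.6 and 78.0 CPM of Avp, the lowest Avp of that section. The 5 in sections 4 to 6 held between 385 and 880 CPM of Avp. Avp averaged 391 ± 282 CPM over the column, against 450 ± 349, 294 ± 268 and 248 ± 237 CPM in columns A to C of those sections. Prok2 averaged 34.7 ± 40.7 CPM against 245 ± 233, 246 ± 188 and 182 ± 161 CPM. In section 5, for example, the column D hexagon held 880 CPM of Avp and 98.5 CPM of Nms. This Nms level rests on 16 counts among 158181, with an exact counting interval of 56.3 to 160 CPM. Within that error it could not be told apart from the next lowest Nms of the section, 99.5 CPM in column A. Over all sections, the summed level of the 10 SCN regulators had medians of 5382, 4449, 3640 and 2310 CPM in columns A to D. Ranges were 1374 to 7205, 2310 to 7042, 537 to 5102 and 1999 to 4623 CPM. The 7 oligodendrocyte markers summed to medians of 1055, 1121, 1397 and 2168 CPM in that order. Their ranges were 0 to 7983, 175 to 11774.5, 363 to 22804 and 876 to 14839 CPM. The 7 astrocyte markers summed to medians of 3016, 2910, 3319 and 3817 CPM. Their ranges were 1407 to 4804, 982 to 4996, 1828 to 6530 and 2185 to 4757 CPM. The medians of columns B and C thus lay between those of A and D for SCN regulators and oligodendrocyte markers. Columns A to C here include sections that have no column D, so column and section are mixed in these sums. The part of these markers in the low Nms was not tested.

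**Figure D3:**
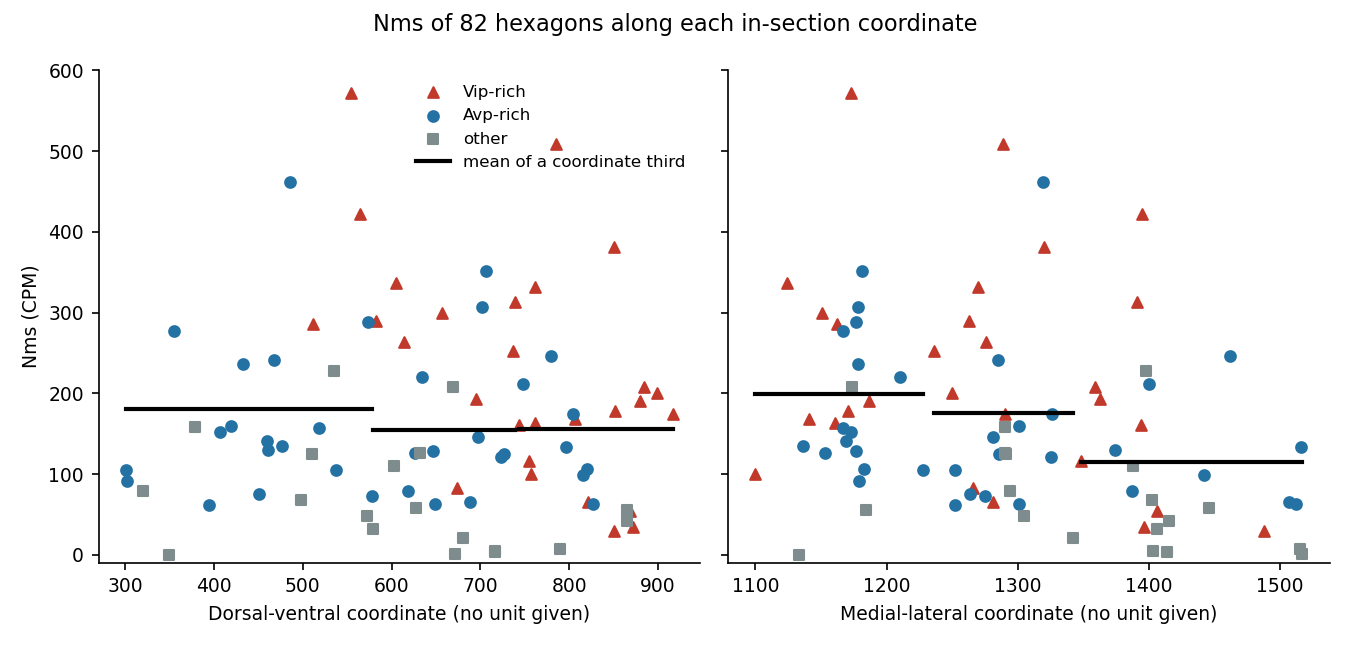
Nms (CPM) of 82 hexagons against the dorsal-ventral (left) and medial-lateral (right) coordinate, with colour and shape for the peptide class and black lines for the means of 3 coordinate groups. Group means lay between 155 and 181 CPM along the first coordinate, and were 199, 176 and 115 CPM along the second.

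Mean Nms was lower away from the centre of the cut grid, with a slope that missed the threshold. The 27 hexagons nearest the mean position of their section held 196 ± 134 CPM, the next 28 held 160 ± 130 CPM and the 27 farthest 135 ± 84.9 CPM (SD). The slope with distance was −0.46 per 100 units (SE 0.17, edgeR p = 0.0102, adjusted p = 0.546), and 0.0262% of genes were called. The correlation of log2 level with distance was negative in 7 of 8 sections, as a description. The 5-term test, which takes both coordinates, their squares and their product, gave F = 3.72 (edgeR p = 0.00476, adjusted p = 0.133), with 2.03% of genes called. Without the filter on low counts the adjusted p was 0.0419, and DESeq2 gave 0.0468.

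Nearest neighbours were only slightly more alike in Nms than pairs of hexagons within sections in general. The mean difference in log2(CPM + 1) between a hexagon and its nearest neighbour in the section was 1.26, against 1.48 over all pairs within sections. For Avp these differences were 2.06 and 2.26, and for Vip 3.05 and 4.05. These are descriptions, since pairs share hexagons.

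Hexagons were next grouped by the peptides they held. Vip-rich hexagons had at least 500 CPM of Vip, Avp-rich hexagons had at least 300 CPM of Avp and were not Vip-rich, and the rest are called other. The grouping uses measured Avp and Vip, so the Nms levels are given as a description with no test. There were 28 Vip-rich, 35 Avp-rich and 19 other hexagons. Just inside the Vip minimum stood hexagons of 518 and 668 CPM of Vip, with 423 and 82.3 CPM of Nms, and just outside it hexagons of 462 and 449 CPM, with 105 and 126 CPM of Nms. Just inside the Avp minimum stood 304 and 327 CPM of Avp, with 75.6 and 124 CPM of Nms, and just outside it 293 and 289 CPM, with 208 and 158 CPM of Nms.

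Nms was present in both peptide domains. Vip-rich hexagons held 228 ± 137 CPM (SD, n = 28), with a lowest, median and highest value of 29.0, 197 and 572 CPM. Avp-rich hexagons held 162 ± 92.4 CPM (n = 35), with 61.8, 133 and 462 CPM. No Avp-rich hexagon fell under 61.8 CPM. The other hexagons held 72.3 ± 69.7 CPM (n = 19), with 0, 56.1 and 228 CPM, and 4 of them had 3 or fewer Nms counts. All 3 groups overlapped.

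As a share of summed Nms CPM, 47.6% stood in the Vip-rich hexagons, which are 34.1% of all, 42.2% in the Avp-rich ones, which are 42.7%, and 10.2% in the others, which are 23.2%. With an Avp minimum of 600 CPM the Avp-rich class kept 13 hexagons, or 15.9% of all, and 14.3% of summed Nms. Of the 10 hexagons richest in Nms, 7 were Vip-rich and 3 Avp-rich. Of the 10 poorest, 8 were other, 2 Vip-rich and 0 Avp-rich. A total of 4 Vip-rich hexagons also reached the Avp minimum, and they held 508, 423, 160 and 29.0 CPM of Nms, which spans nearly the whole range.

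Within sections the Vip-rich hexagons had no steady lead over the Avp-rich ones. Among the 6 sections with both, the Vip-rich median was higher in 3. It was 82.3 against 126 CPM in section 4, 253 against 123 CPM in section 5 and 274 against 242 CPM in section 6. In section 7 it was 177 against 262 CPM, and section 8 had 1 Vip-rich hexagon at 572 CPM against an Avp-rich median of 263 CPM. Vip-rich hexagons were unevenly spread, with 22 of 28 in sections 4 to 6, and sections 2 and 3 had none. The others ranked lower within sections too: the Avp-rich median exceeded theirs in 7 of 8 sections and the Vip-rich median in 6 of 6. These counts rest on few hexagons, since sections 5, 6 and 8 had 1 other hexagon each. In section 4 the 2 others were the shallow library at 0 and a hexagon of 110 CPM, which lay above the Vip-rich median there.

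Markers of the nucleus moved with these groups. The median of Six6 was 148 CPM in Vip-rich, 141 CPM in Avp-rich and 55.0 CPM in other hexagons, and that of Prok2 was 230, 89.9 and 8.92 CPM. The 10 SCN regulators summed to medians of 4577 (range 1290 to 7185), 4655 (2268 to 7205) and 2530 CPM (537 to 4511). The 7 oligodendrocyte markers summed to 1406 (175 to 14807), 1055 (352 to 9271) and 1331 CPM (0 to 22804). The 7 astrocyte markers summed to 3039 (982 to 6530), 2720 (1541 to 4996) and 4007 CPM (1407 to 5408). The 5 general neuron markers summed to 1668 (1166 to 3129), 1886 (1039 to 2748) and 2269 CPM (603 to 3642), and the 3 GABA neuron markers to 1740 (1042 to 2899), 1679 (974 to 2884) and 2074 CPM (1005 to 2705). Medians of the summed SCN regulators were thus lowest, and those of summed astrocyte, neuron and GABA neuron markers highest, in the other hexagons. Gad1 alone went differently, with medians of 1136, 966 and 973 CPM in Vip-rich, Avp-rich and other hexagons. The part of these differences in the low Nms of the other hexagons was not tested.

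**Figure D4:**
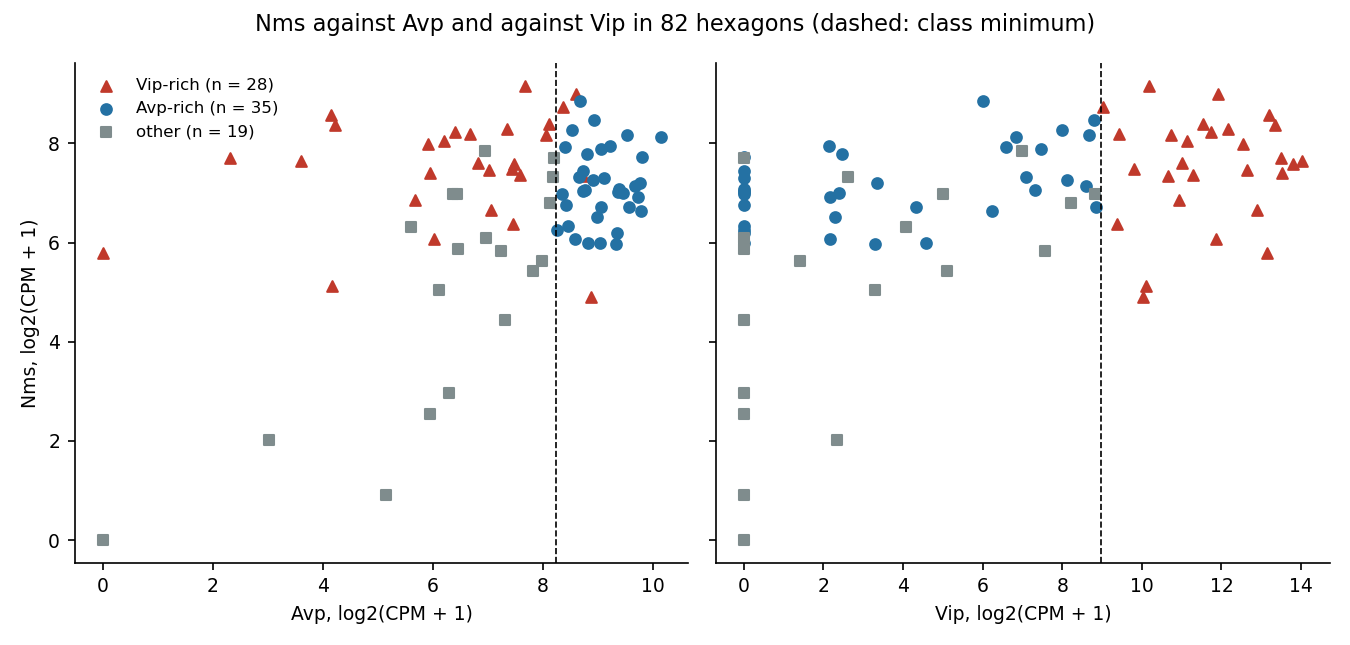
Nms against Avp (left) and Vip (right) in 82 hexagons, both on a log2(CPM + 1) scale, with dashed lines at the class minima of 300 CPM of Avp and 500 CPM of Vip. Nms stayed at or above 61.8 CPM in all 35 Avp-rich hexagons and ran down to 0 CPM among the 19 others.

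The hexagons of lowest Nms had depth enough to show it, apart from the library at 0. Replicate 3 of section 3 had 1 Nms count among 1178126, or 0.886 CPM with an exact 95% counting interval of 0.0224 to 4.94 CPM. Replicate 12 of section 7 had 3 counts among 1055026, or 3.05 CPM (0.628 to 8.90). Replicate 4 of section 1 had 2 among 414797, or 4.87 CPM (0.589 to 17.6). These hexagons still held 1287, 724 and 934 CPM of Gad1. Their Six6 was 49.6, 12.2 and 60.8 CPM, against a median of 123 CPM over all hexagons. Their 10 SCN regulators summed to 1999, 537 and 2061 CPM, against a median of 4326 CPM. How much of each hexagon lay inside the nucleus was not tested. At the other end, replicate 3 of section 8 held 606 counts or 572 CPM (528 to 620), and replicate 7 of section 7 held 759 counts or 508 CPM (473 to 546).

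Transcripts for the receptors of neuromedin S, and for its relative, were scarce. Nmu gave 60 counts over 10 of 82 hexagons, at most 20 in 1 hexagon. Nmur1 gave 17 counts over 4 hexagons, 12 of them in replicate 10 of section 4. Nmur2, the brain receptor, gave 92 counts over 12 hexagons. None of these genes passed the filter of 10 counts in 10 libraries, so they were not tested. Nmur2 reached 39 counts, or 36.8 CPM, in replicate 3 of section 8, the hexagon with the highest Nms, and 18 counts in replicate 1 of the same section. Section 8 held 61 of its 92 counts. The annotated Nmu and Nmur2 each overlap another gene (4930432L08Rik and Gm12239), and with the strand setting not given in the sources used here, reads of such pairs cannot be told apart.

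Enzymes and chaperones that cut and amidate neuropeptide precursors were measured in full. Of 6 genes for peptide maturation, 2 rose with the dorsal-ventral coordinate, where 0.793% of all genes were called: Pcsk1, a prohormone convertase, by 0.36 per 100 units (SE 0.08, edgeR adjusted p = 0.00494), and Pam, the amidating enzyme, by 0.19 (SE 0.04, edgeR adjusted p = 0.000399). Along the medial-lateral coordinate, with 1.38% of all genes called, 1 of 6 fell, the convertase Pcsk2, at −0.25 (SE 0.06, edgeR adjusted p = 0.00930). Median slopes of the 6 were 0.06 and −0.20, against medians of 0.0026 and −0.0044 over all genes tested. Of 15 genes for the G proteins, phospholipases, calcium channels and kinases through which NMU receptors can signal, 13 were tested and 0 were called along the 3 coordinates over hexagons. Shares of all genes called in these fits were 0.793%, 1.38% and 2.94%, so 0 of 13 lies near them.

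Of 10 regulators that mark the SCN, 4 fell along the medial-lateral coordinate, where 1.38% of all genes were called: the transcription factors Zfhx3, at −0.27 (SE 0.05, edgeR adjusted p = 0.00197), and Six3, with −0.31 (SE 0.08, edgeR adjusted p = 0.0145), the nuclear receptor Rorb, with −0.25 (SE 0.06), and Rgs16, a brake on G protein signalling, with −0.39 (SE 0.10). The other 6 did not pass, Lhx1 at −0.56 (edgeR adjusted p = 0.0571) among them. The list median was −0.29, against −0.0044 over all genes tested, and no difference from the slope of Nms was tested. Of 16 clock genes 4 fell, Per1, Per3, Nr1d1 and Hlf, with a list median of −0.15. With the library set as a further factor, 14 genes in all were called along this coordinate in place of 158. Without section 7 it was 31, and DESeq2 called 328. Whether the regulators, the clock genes and Pcsk2 kept their calls under these settings is not given here. Along the dorsal-ventral coordinate 0 of the 10 regulators and 0 of the 16 clock genes were called, against 0.793% of all genes.

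The genes whose course across hexagons was most like that of Nms were sought among 8145 other genes with a mean of 20 CPM or more. Likeness is Pearson's r of log2(CPM + 1) over 81 hexagons after section means were removed. Hexagons share library depth, and r of Nms with the number of genes detected was 0.580 on the same scale. The median r over all 8145 genes was 0.254, and 7088 of them had a positive r. Values without the 5 shallowest libraries are given for the 10 most and the 5 least alike genes only.

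The most alike was Tgfa, a ligand of the EGF receptor secreted by SCN cells, with r = 0.760, and 0.679 without the shallow libraries. Chodl, a lectin-like membrane protein, had 0.750 and 0.680, and Prok2 had 0.744 and 0.699. Prok2 ranked 1 with Spearman's rho, with the larger pseudocount, with the number of genes detected removed as well, and without the shallow libraries. Rgs16 had 0.741 and 0.634, and Syt10, an SCN-enriched synaptotagmin, 0.739 and 0.658. The next were Pigp, which acts in lipid anchor synthesis, Pgrmc1, a heme-binding membrane protein, and Pde7b, a cAMP phosphodiesterase. Scg2, a granin of dense-core vesicles, and Prokr2, the receptor of prokineticin 2, completed the 10. These 5 lay between 0.696 and 0.714, and between 0.599 and 0.630 without the shallow libraries.

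The least alike were the mitochondrially encoded mt-Nd2 (−0.650), mt-Nd4 (−0.645), mt-Cytb (−0.603) and mt-Nd1 (−0.595), with Usmg5, an ATP synthase component, at −0.611. Without the shallow libraries they lay between −0.534 and −0.463. The mitochondrial transcripts have near-identical nuclear copies, so their counts are uncertain.

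Among the peptides, r with Nms was 0.502 for Avp, 0.347 for Vip and 0.213 for Grp, all below the 0.744 of Prok2. Spearman's rho was 0.332, 0.298 and 0.185, against 0.671 for Prok2. All values in this paragraph include the shallow libraries. The 9 SCN regulators with enough counts had a median r of 0.595, and 9 of 9 were positive, against 7088 of all 8145 genes. The highest after Rgs16 and Syt10 was Six6 at 0.681. Of 15 clock genes 13 were positive, a share like that of all genes, with a median of 0.350, led by Per1 (0.664) and Nr1d1 (0.636), and Bhlhe40 was lowest at −0.265. Of the 6 peptide maturation genes 6 were positive, again near the share of all genes, with a median of 0.383 and Pcsk2 highest at 0.652. Medians were 0.151 for GABA neuron, 0.0352 for oligodendrocyte, 0.0314 for astrocyte and −0.0764 for general neuron markers. The medians of these 4 marker lists lay below that of all genes.

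**Figure D5:**
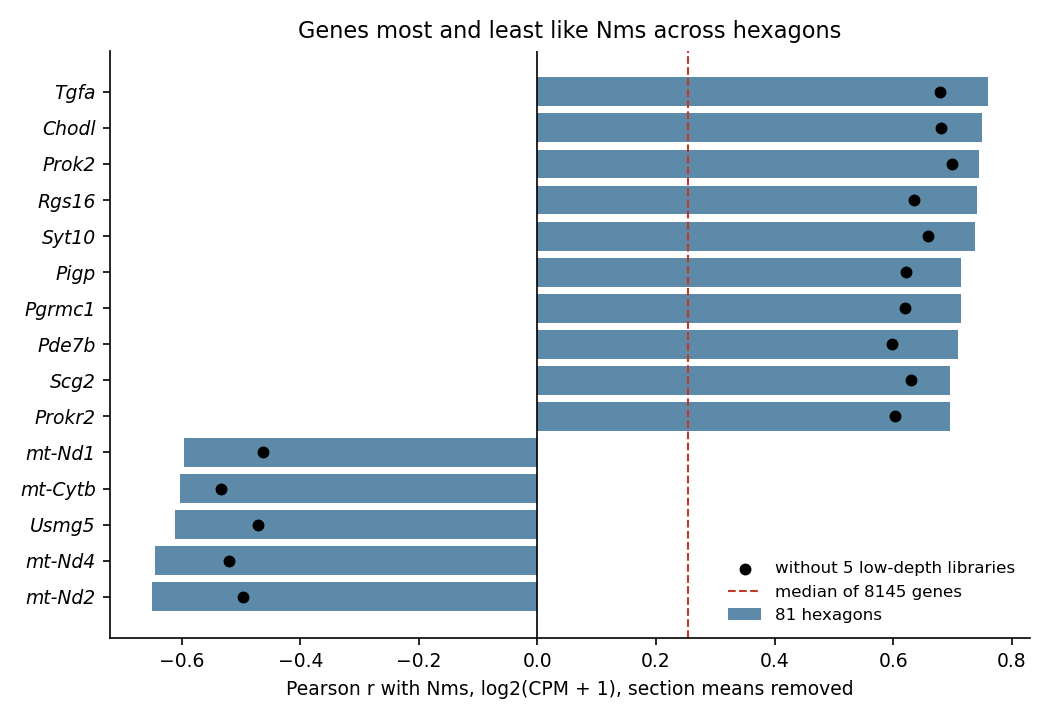
Pearson r with Nms of the 10 most and 5 least alike genes among 8145, over 81 hexagons with section means removed (bars) and without the 5 low-depth libraries (points), with a dashed line at the median of all genes, 0.254. The 10 highest ran from 0.696 to 0.760 and the 5 lowest from −0.650 to −0.595.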

How the data were processed

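The authors deposited whole-number counts per gene for 27515 genes in 82 libraries made with Smart-seq2 and Tn5, per the labels' protocols. The tools bcl2fastq 2 and STAR and the build GRCm38 appear in the submitters' processing notes, without roles. How reads were counted, with which strand setting and annotation, is not given in the sources used here. RPKM values that the authors deposited (27055 genes) equal the counts per length and library total, so they were used only to compare levels between genes and for symbols. No library pair was identical (0 pairs). Total counts of 11905 to 2843366 set the precision.

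The 11469 genes that reached 10 counts in at least 10 libraries were fitted with edgeR 4.0.16 (R 4.3.3, TMM, robust quasi-likelihood) and checked on simulated data, with DESeq2 1.42.0 as an alternative. In-section slopes had section as a factor and both coordinates. The anterior-posterior slope over hexagons had both coordinates, and that over section sums used sections 1 to 8. Slopes are log2 per 100 coordinate units, with SE as the slope over the square root of F. Adjusted p-values are Benjamini-Hochberg values at 0.05. Permutation tests were two-sided on log2(CPM + 1), exact or with 100000 resamples. The rule named Nms, Avp, Vip, Prok2, Grp, Nmu and its receptors, up to 4 members per list, and the 10 genes of highest and 5 of lowest likeness. The gene, the lists and the tests were chosen with earlier results of these data known. Grid columns and leaving out the library with 0 Nms counts were added after seeing the data. Low-depth libraries are the 5 below the median total divided by 3.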

Additional observations from a re-analysis of the deposited data

How the results depend on the processing

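No call on Nms reversed its direction under any setting run. The 5-term test passed without the low-count filter (edgeR adjusted p = 0.0419) and with DESeq2 (adjusted p = 0.0468). The difference between sections passed without the filter (edgeR adjusted p = 0.0425), with DESeq2 (adjusted p = 0.0252) and with section 7 left out (edgeR adjusted p = 0.0416). With each section left out in turn it lay between that value and 0.289. The anterior-posterior slope over section sums passed without the filter (0.52, edgeR adjusted p = 0.0419) and with DESeq2 (0.50, adjusted p = 0.00095). The slope over hexagons lost its call with the library set as a factor (0.57, edgeR adjusted p = 1.00). Leaving out each section or hexagon of section 1 moved it between 0.41 and 0.58 (edgeR adjusted p up to 0.142). The cause of these changes was not tested. Of the 10 genes most like Nms, 5 kept a place with Spearman's rho, 6 with the number of genes detected removed, and 6 without low-depth libraries. Nms minus Grp on the medial-lateral slope passed with a pseudocount of 10 (−0.40, permutation, adjusted p = 0.0434). The share of summed Nms CPM in Avp-rich hexagons moved from 42.2% to 14.3% with an Avp minimum of 600 CPM, which 13 hexagons reached in place of 35. Calls over all genes along the anterior-posterior coordinate, 337 over hexagons, became 2372 without the filter, 571 with DESeq2 and 0 with the library set. Along the medial-lateral coordinate 158 calls became 912 without the filter, 328 with DESeq2, 14 with the library set and 31 without section 7. No paired analysis was possible because the labels give no replicate numbers, and the numbers used here only name hexagons. Depth limits the statement for the library with 0 Nms counts. Leaving it out changed no call on Nms.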
